A study of Mus musculus with 10 samples.

Results

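The genes described here are 82 single genes whose nascent transcription was already low within the first hour of SOX2 removal from mouse embryonic stem cells (mESCs). They were chosen from 9833 gene units that had an allowed symbol and a mean of at least 50 sequenced fragments per library, out of 40779 transcribed units (TUs) in the table, of which 16119 cover a single gene. A gene was taken when its mean level was lower than in untreated cells by at least 0.6 on the log2 scale at 0.5 hours post depletion (hpd) and by at least 0.8 at 1 hpd, each computed on fragments scaled to the library total (CPM) with 0.1 CPM added. Symbols beginning with Gm, LOC, Zfp, Slc or Platr, symbols ending in Rik, and 13 named genes (Klf2, Klf4, Klf5, Aoah, Nanog, Esrrb, Tbx3, Prdm14, Fgf4, Lefty1, Lefty2, Spry4 and Otx2) were left out by the rule. Because the NT, 0.5 hpd and 1 hpd libraries chose the members, their values at those times are a description and carry no test, and only the comparison of 6 hpd with 2 hpd rests on libraries that the ratios of the rule did not use.

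The cells were an E14 (IB10) mESC line in which both Sox2 alleles carry a C-terminal FKBP degron with a double HA tag and a P2A-linked fluorescent protein, grown without serum in the presence of LIF, the MEK inhibitor PD0325901 and the GSK3 inhibitor CHIR99021. Such lines were picked as homozygous clones that responded to the compound, and the sources used here do not say whether the libraries came from more than 1 clone. Depletion was by 500 nM dTAG-13, a small molecule that brings the FKBP-tagged protein to a ubiquitin ligase, and libraries were made at 0.5, 1, 2 and 6 hpd. The untreated (NT) cells carried the same tagged alleles and received the solvent DMSO, and each of the 5 groups held 2 replicate libraries. RNA made during the last 10 min was labelled with 2 mM 4-thiouridine and sequenced by strand (TT_chem-seq). Cells without the tag that received dTAG-13 were not analysed here, so an effect of the compound and an effect of SOX2 loss cannot be told apart in these libraries.

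SOX2 is a DNA-binding protein of the HMG box family that binds many enhancers together with OCT4, and in mESCs it is part of the network of factors that keeps the cells pluripotent. Steady-state mRNA reports what has accumulated over the lifetime of a transcript, whereas a short 4-thiouridine pulse reports what RNA polymerase II made during the pulse, introns and unstable antisense RNA included. A level given here is newly made RNA of a unit as a share of its library, not an amount of mRNA or protein. A change in the total RNA synthesis of a cell would not show in such a share.

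The 10 libraries held between 11131490 and 25854106 fragments over the transcribed units. The Sox2 unit itself checks nothing, since the degron acts on the protein, and its mean level was 274 CPM in NT and 269 CPM at 6 hpd. Markers of embryonic stem cells were transcribed in every library, with the sum of 8 genes between 3368 and 3799 CPM in NT and between 2663 and 2734 CPM at 6 hpd. The summed levels of the markers with a unit were 4.52 to 5.06 CPM in NT and 7.0 to 7.35 CPM at 6 hpd for primitive endoderm (5 of 6 genes), 44.7 to 49.5 and 24.7 to 29.6 CPM for trophectoderm (4 of 6, mostly Tfap2c at 42.2 CPM in NT), and 41.5 to 45.9 and 24.9 to 26 CPM for the neural lineage (3 of 6). Mesoderm markers (2 of 6) summed to 9.99 to 12.9 and 6.79 to 7.91 CPM and fibroblast markers (3 of 6) to 1.73 to 2.30 and 2.36 to 2.45 CPM, and the part of these lists in the results was not tested. In bulk libraries fewer cells of a type and less RNA per cell cannot be told apart.

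Summed over the 82 members, nascent RNA made up 4935 and 5150 CPM in the NT libraries, 2884 and 2949 CPM (0.5 hpd), 2047 and 2133 CPM (1 hpd), 1808 and 2037 CPM (2 hpd) and 1975 and 1974 CPM (6 hpd). The sums at 1, 2 and 6 hpd thus lay close together, while the drop into the first hour was chosen by the rule. The median member stood at 60.4%, 42.2%, 38.5% and 41.8% of its NT level at 0.5, 1, 2 and 6 hpd, whereas the median of the 9833 eligible units was 99%, 97.6%, 97.3% and 100.3%. Members ranged from 13.9% to 60.3% of NT at 2 hpd and from 9.25% to 79.0% at 6 hpd, so none was back at its NT level. The lowest group mean came at 1 hpd in 22 members, at 2 hpd in 31 and at 6 hpd in 29, and 15 members at 2 hpd and 11 at 6 hpd stood under 25% of NT.

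**Figure D1:**
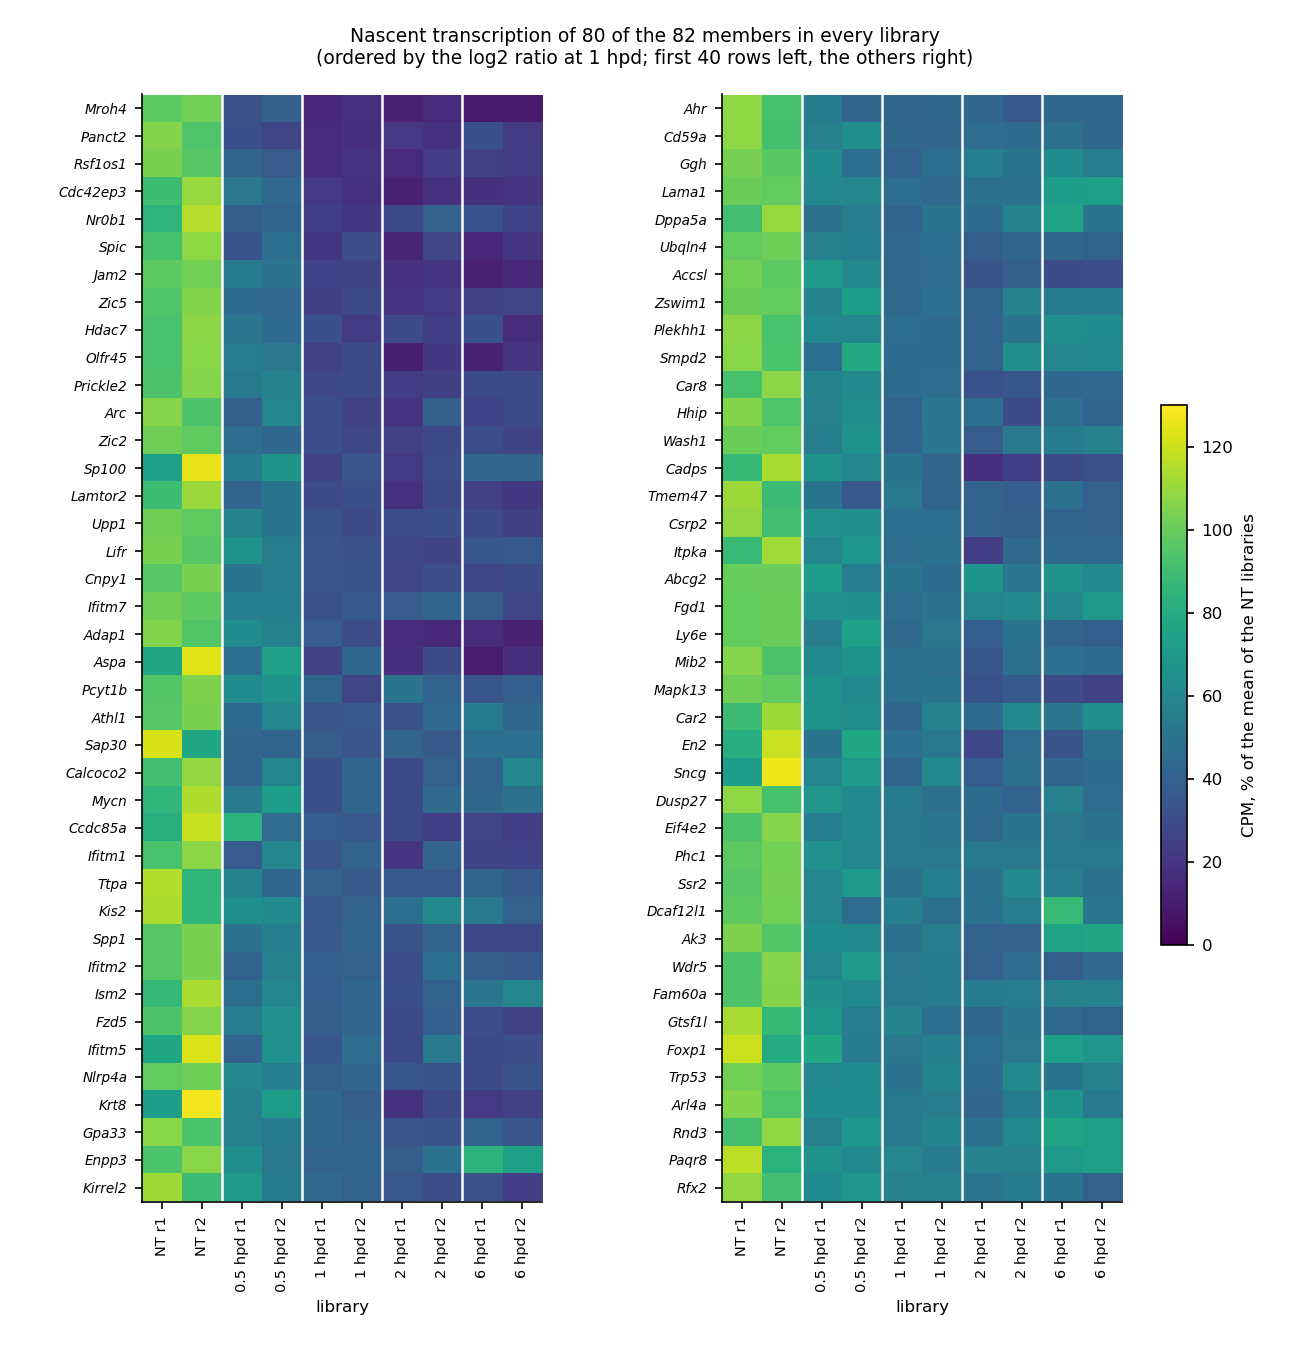
Heat map of 80 of the 82 members (rows, ordered by the log2 ratio at 1 hpd) in the 10 libraries (columns), with colour for the CPM of each library as a percentage of the mean NT level. Over all 82, the median member stood at 60.4%, 42.2%, 38.5% and 41.8% of NT at 0.5, 1, 2 and 6 hpd, and no member had its lowest group mean at 0.5 hpd.

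The fit across all tested units (edgeR, Benjamini-Hochberg adjusted p below 0.05) called 54 members lower at 0.5 hpd and 81 at 1 hpd, beside 0.742% and 3.34% of eligible units called lower, and since the rule used these contrasts nothing is read from the counts. The count at 0.5 hpd depended on single libraries, being 28 and 26 without NT replicate 1 and 2, and 30 and 24 without 0.5 hpd replicate 1 and 2. All 82 members were lower than NT at 2 hpd (5.01% of eligible units called lower) and 75 at 6 hpd (7.12%). These comparisons share their NT libraries with the rule. The 7 members not called at 6 hpd were Ak3, Enpp3, Rnd3, Foxp1, Paqr8, Dcaf12l1 and Smpd2. Both depleted libraries lay below both NT libraries for 82 members at 2 hpd and at 6 hpd, where 30.5% and 32.3% of eligible units did so. Taken alone, replicate 1 put 64 members past both thresholds of the rule, and replicate 2 also 64.

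Of the members, 11 encode transcription factors, at group medians of 47.8% of NT at 0.5 hpd, 36.9% at 1 and at 2 hpd and 40.8% at 6 hpd. The Zic genes encode zinc finger factors that act in pluripotency and in patterning of the early embryo, and Zic2 and Zic5 were members. Zic2 (chr14:122475383-122487748, mm10, plus strand) read 27.9 and 26.8 CPM in NT, 12.7 and 11.9 (0.5 hpd), 8.33 and 7.51 (1 hpd), 6.86 and 7.79 (2 hpd) and 8.48 and 7.29 (6 hpd). The neighbouring Zic5 (chr14:122454127-122466122, minus strand) read 29.1 and 32.6, 14 and 13.7, 7.54 and 8.92, 6.12 and 6.78, and 7.71 and 8.41 CPM at the same times. In both the libraries of 1, 2 and 6 hpd lay far below NT and near each other, and against NT the log2 fold changes at 6 hpd were −1.71 ± 0.14 (SE, adjusted p = 1.5e-06) for Zic2 and −1.84 ± 0.14 (6.5e-07) for Zic5.

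Nr0b1 (chrX:86191769-86198651), which encodes the orphan nuclear receptor DAX1, a partner of OCT4 in mESCs, read 23.1 and 31.6 CPM in NT, 10.4 and 11.4 (0.5 hpd), 6.45 and 5.70 (1 hpd), 7.82 and 10.8 (2 hpd) and 8.97 and 7.12 (6 hpd). Spic, an ETS family factor, read 53.0 and 62.2 CPM in NT, 19.4 and 27.0 (0.5 hpd), 12.3 and 17.6 (1 hpd), 7.78 and 15.5 (2 hpd) and 8.20 and 11.9 (6 hpd), with a wide spread between replicates from 0.5 hpd onwards. Mycn, which encodes the growth-promoting factor N-MYC, read 44.5 and 59.4 CPM in NT, 27.3 and 37.8 (0.5 hpd), 16.6 and 21.7 (1 hpd), 15.1 and 23.3 (2 hpd) and 22.6 and 24.9 (6 hpd). Replicate 1 was the lower library at every time for Spic and for Mycn, and in neither gene did any depleted library reach NT. The log2 fold changes at 2 hpd against NT were −1.45 ± 0.17 for Nr0b1, −2.22 ± 0.24 for Spic and −1.34 ± 0.18 for Mycn (adjusted p = 5.7e-05, 2.6e-05 and 0.00022). Trp53, the gene of the tumour suppressor p53, held 61.8%, 54.0%, 53.7% and 53.6% of NT over the course, and the aryl hydrocarbon receptor gene Ahr 47.8%, 43.1%, 39.8% and 43.5%. The homeobox gene En2 and the RFX family gene Rfx2 stood at 40.8% and 45.2% of NT at 6 hpd. Foxp1, a forkhead factor, stood at 70.7% of NT at 6 hpd and was the factor gene not called there (−0.42 ± 0.22, adjusted p = 0.21).

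A group of 5 members acts on chromatin, and their group medians were 62.8%, 52.1%, 43.2% and 47.5% of NT at 0.5, 1, 2 and 6 hpd. Phc1 (chr6:122304591-122347318, minus strand), a subunit of the Polycomb repressive complex that ubiquitylates histone H2A, read 179 and 190 CPM in NT, 121 and 111 (0.5 hpd), 95.9 and 96.3 (1 hpd), 96.7 and 96.1 (2 hpd) and 97.0 and 96.7 (6 hpd). From 1 hpd onwards its 6 libraries differed by about 1 CPM. Wdr5 (chr2:27515068-27540153, plus strand), a shared subunit of the MLL/SET histone H3K4 methyltransferases, read 295 and 335 CPM in NT, 189 and 221 (0.5 hpd), 163 and 171 (1 hpd), 125 and 147 (2 hpd) and 121 and 139 (6 hpd). Fam60a and Sap30, both of the SIN3 histone deacetylase complex, stood at 56.5% and 47.5% of NT at 6 hpd, and the class IIa deacetylase gene Hdac7 at 24.3%. All 5 were lower than NT at 2 and at 6 hpd, with log2 fold changes at 6 hpd of −0.84 ± 0.11 for Phc1 and −1.18 ± 0.11 for Wdr5 (adjusted p = 6.9e-05 and 5.0e-06).

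**Figure D2:**
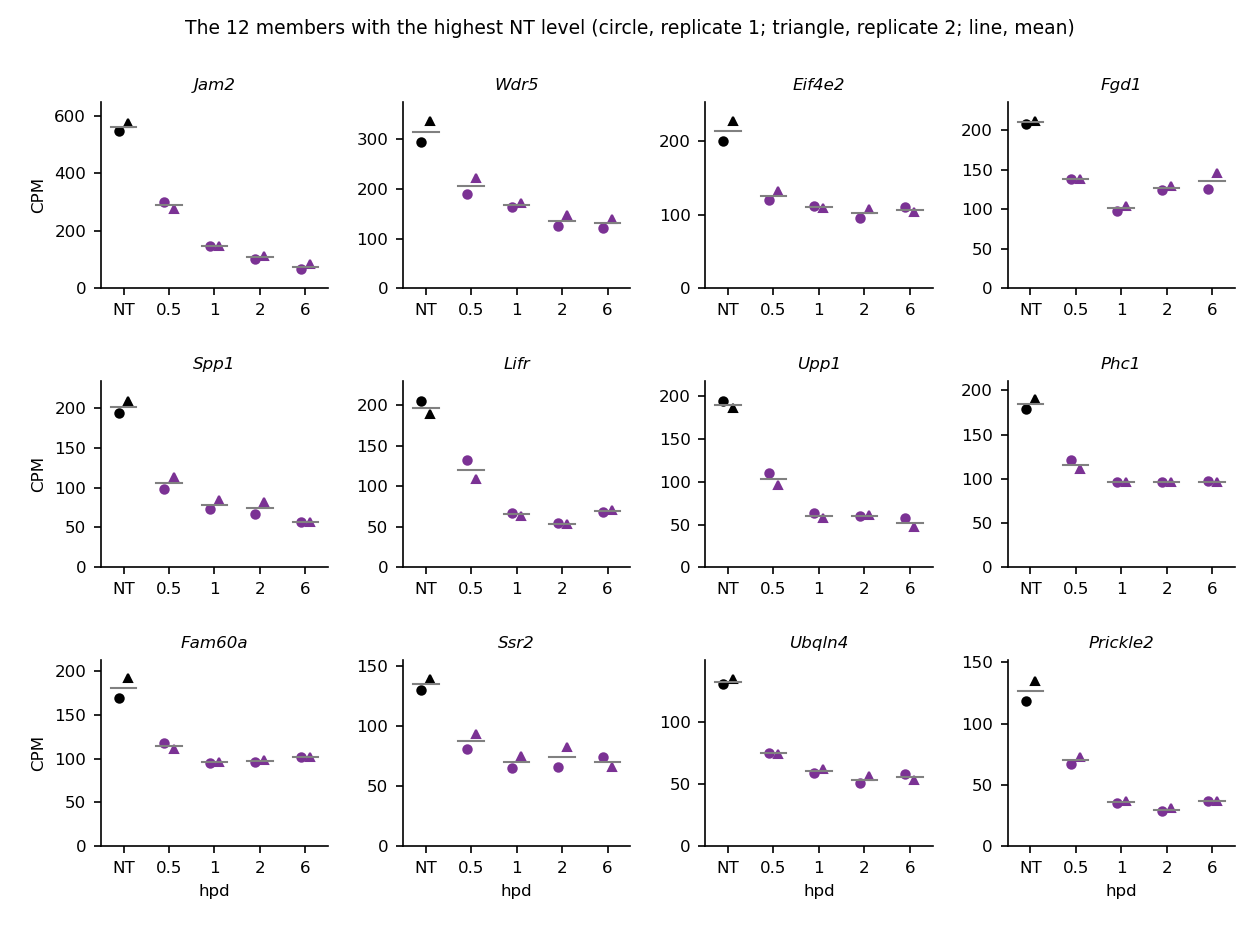
CPM of the 12 members with the highest mean NT level, a panel each, in the NT group and at 0.5, 1, 2 and 6 hpd (axis from 0, times at even steps), with a circle for replicate 1, a triangle for replicate 2 and a line through the group means. In Jam2 the level kept dropping to 66.4 and 83.9 CPM (6 hpd), in Phc1 it stayed at about 96 to 97 CPM from 1 hpd, and in Fgd1 the libraries of 2 and 6 hpd lay above those of 1 hpd.

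A further 12 members belong to signalling pathways or to the control of small GTPases, at group medians of 61.9%, 47.0%, 34.6% and 40.0% of NT. Lifr (chr15:7129601-7209018, plus strand) encodes the ligand-binding receptor chain for LIF, the cytokine in the medium that sustains self-renewal through STAT3. It read 205 and 189 CPM in NT, 132 and 109 (0.5 hpd), 67.5 and 63.4 (1 hpd), 54.7 and 52.8 (2 hpd) and 68.4 and 70.5 (6 hpd). Both libraries of 6 hpd lay above both of 2 hpd, by 0.34 ± 0.13 on the log2 scale (adjusted p = 0.30), while the difference from NT at 6 hpd was −1.42 ± 0.13 (3.2e-06). Fzd5 (chr1:64710460-64737755, minus strand), a Frizzled receptor for Wnt ligands, read 110 and 125 CPM in NT, 65.0 and 77.4 (0.5 hpd), 45.3 and 50.4 (1 hpd), 35.1 and 45.5 (2 hpd) and 35.8 and 30.1 (6 hpd). Prickle2, a component of planar cell polarity signalling, read 119 and 135 CPM in NT, 66.8 and 73.2 (0.5 hpd), 35.7 and 37.0 (1 hpd), 28.5 and 31.0 (2 hpd) and 37.2 and 37.1 (6 hpd). For both genes every library from 1 hpd on lay under the lower library of 0.5 hpd.

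Among the GTPase regulators, Cdc42ep3, an effector of CDC42, stood at 48.0%, 20.3%, 15.3% and 18.6% of NT. Adap1, a GTPase-activating protein for ARF6, read 51.9 and 46.7 CPM in NT, 30.8 and 28 (0.5 hpd), 18.4 and 15.3 (1 hpd), 7.59 and 7.32 (2 hpd) and 8.20 and 6.28 (6 hpd), so the libraries of 2 hpd lay well below those of 1 hpd. Fgd1, an exchange factor for CDC42, took another course, with 208 and 212 CPM in NT, 138 and 138 (0.5 hpd), 98.3 and 104 (1 hpd), 125 and 129 (2 hpd) and 125 and 145 (6 hpd). Its log2 fold change from NT at 6 hpd was −0.54 ± 0.11 (adjusted p = 0.0029). Rnd3, an atypical small GTPase, stood at 75.1% of NT at 6 hpd and was not called (−0.32 ± 0.12, adjusted p = 0.086). Mapk13, the p38 delta kinase, Mib2, a ubiquitin ligase of Notch signalling, and Hhip, a membrane protein that binds Hedgehog ligands, stood at 27.5%, 46.5% and 45.1% of NT at 6 hpd.

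Another 11 members encode surface or matrix proteins, with group medians of 54.9%, 40.5%, 39.1% and 32.8% of NT. Jam2 (chr16:84768384-84829797, plus strand), a junctional adhesion molecule, read 547 and 575 CPM in NT, 301 and 276 (0.5 hpd), 147 and 149 (1 hpd), 103 and 114 (2 hpd) and 66.4 and 83.9 (6 hpd), and the groups did not overlap at any step. Its log2 fold change against NT was −2.26 ± 0.13 at 2 hpd and −2.81 ± 0.13 at 6 hpd (adjusted p = 5.8e-08 and 5.2e-09). Spp1 (chr5:104433162-104445563, plus strand), which encodes the secreted matrix protein osteopontin, read 193 and 208 CPM in NT, 97.6 and 113 (0.5 hpd), 72.6 and 84.6 (1 hpd), 66.2 and 82.1 (2 hpd) and 56.9 and 56.2 (6 hpd). Lama1 (chr17:67695779-67825152, plus strand), a laminin alpha chain of basement membranes, read 63.2 and 61.9 CPM in NT, 38.1 and 37.3 (0.5 hpd), 29.3 and 27.9 (1 hpd), 30.6 and 30.3 (2 hpd) and 45.6 and 46.3 (6 hpd). Lama1 thus lay between the levels of 0.5 hpd and NT at 6 hpd, while Jam2 and Spp1 were at their lowest there. The difference of Lama1 from NT at 6 hpd, −0.36 ± 0.11 (adjusted p = 0.033), passed the threshold in the edgeR fit and missed it in DESeq2 (adjusted p = 0.117).

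Of the 5 tested Ifitm units, which encode small interferon-induced membrane proteins, 4 were members, at 26.5% (Ifitm1), 37.3% (Ifitm2), 30.1% (Ifitm5) and 32.8% (Ifitm7) of NT at 6 hpd. Ifitm3 was not a member and was not called at 1 hpd (−0.66 ± 0.24, adjusted p = 0.15). Ifitm genes resemble each other in sequence, and reads with a mapping quality under 10 had been removed, so the split of reads between them is uncertain. The adhesion gene Kirrel2, the surface antigen Gpa33, the complement inhibitor Cd59a and the GPI-anchored Ly6e stood at 27.8%, 37.3%, 45.9% and 40.7% of NT at 6 hpd.

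The families of some members hold other genes, a comparison chosen after the members' names were known. In 10 such families, 27 relatives that were no members were tested, of which 2 were called lower and 2 higher at 1 hpd, 2 lower and 3 higher at 2 hpd, and 3 lower and 2 higher at 6 hpd. Of the eligible genes 3.34%, 5.01% and 7.12% were lower and 4.61%, 8.52% and 12.7% higher at these times. Those lower were Hdac2 and Car13 at each of these times and Hdac1 at 6 hpd. Hdac2, a class I histone deacetylase, differed from NT by −0.48 at 1 hpd (adjusted p = 0.013), −0.51 at 2 hpd (0.0064) and −0.57 at 6 hpd (0.0021). Phc2 and Phc3 differed from NT by 0.33 and 0.23 at 1 hpd on the log2 scale (adjusted p = 0.14 and 0.36), and by 0.47 and 0.41 at 6 hpd (0.013 and 0.040). Lama5, another laminin alpha chain, was higher than NT by 0.80 at 1 hpd (adjusted p = 0.00022), and Foxp4 by 0.82 (0.00044). At 6 hpd Lama5 differed from NT by −0.04 and Foxp4 by −0.08. The difference between relatives within a family was not tested.

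The 11 members that serve metabolism and transport had the highest median at 6 hpd, 57.9% of NT, after 60.9%, 44.0% and 43.5%. Upp1 (chr11:9114416-9138211, plus strand), which encodes uridine phosphorylase, read 194 and 186 CPM in NT, 111 and 96.2 (0.5 hpd), 63.6 and 57.0 (1 hpd), 59.6 and 60.8 (2 hpd) and 57.5 and 46.5 (6 hpd). Ak3, a mitochondrial adenylate kinase, read 11.1 and 10.0 CPM in NT, 6.69 and 6.56 (0.5 hpd), 5.17 and 5.82 (1 hpd), 4.28 and 4.22 (2 hpd) and 7.92 and 8.07 (6 hpd). Enpp3, an ectonucleotidase, read 5.13 and 5.90 CPM in NT, 3.56 and 2.87 (0.5 hpd), 2.25 and 2.32 (1 hpd), 2.1 and 2.68 (2 hpd) and 4.62 and 4.09 (6 hpd). Ak3 and Enpp3 had their lowest group at 2 and 1 hpd, while in Upp1 the lowest library was one of 6 hpd. Aspa, an aminoacylase that acts on N-acetylaspartate, stood at 14.1% of NT at 6 hpd, the multidrug transporter Abcg2 at 64.0%, and the carbonic anhydrase family members Car2 and Car8 at 57.9% and 44.1%.

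In translation, secretion or protein turnover act 5 members, with medians of 56.4%, 45.9%, 40.5% and 50% of NT at 0.5, 1, 2 and 6 hpd. Eif4e2, a cap-binding protein related to eIF4E, read 200 and 227 CPM in NT, 120 and 132 (0.5 hpd), 112 and 109 (1 hpd), 95.8 and 107 (2 hpd) and 110 and 104 (6 hpd). All its libraries of 1, 2 and 6 hpd lay within 95.8 to 112 CPM. Ubqln4, Ssr2 and Lamtor2 are neighbours on chromosome 3 and stood at 42.2%, 52.1% and 23.5% of NT at 6 hpd. Calcoco2, an autophagy receptor, stood at 50.8%.

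The remaining 27 members hold varied or little-described genes, at medians of 60.5%, 41.2%, 36.6% and 42.4% of NT. Mroh4 (chr15:74617540-74660049, minus strand) read 46.8 and 48.8 CPM in NT, 15.5 and 18.9 (0.5 hpd), 7.12 and 8.92 (1 hpd), 5.66 and 7.61 (2 hpd) and 4.41 and 4.43 (6 hpd), which at 9.25% of NT was the lowest member at 6 hpd. Panct2 (chr1:96872277-96891734, plus strand), a noncoding RNA gene, read 15.7 and 13.9 CPM in NT, 4.72 and 4.04 (0.5 hpd), 2.37 and 2.65 (1 hpd), 3.18 and 2.86 (2 hpd) and 4.69 and 3.25 (6 hpd). It had the lowest share of NT of all members at 0.5 hpd, 29.6%. Dppa5a, an RNA-binding protein of pluripotent cells, read 34.0 and 40.9 CPM in NT, 18.3 and 20.7 (0.5 hpd), 15.6 and 18.6 (1 hpd), 17 and 21.8 (2 hpd) and 28.4 and 18.8 (6 hpd), where its 2 replicates lay far apart. Rsf1os1 and Olfr45 stood at 23.8% and 16.1% of NT at 6 hpd.

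Members at the edge of the rule differed little from genes just outside it. Just inside the 0.5 hpd threshold were Foxp1 (−0.60), Rfx2 (−0.61) and Accsl (−0.61), and just outside it Dgkb (−0.60), Ankrd35 (−0.60) and Dstyk (−0.59). Just inside the 1 hpd threshold were Rfx2 (−0.81), Paqr8 (−0.81) and Rnd3 (−0.84), and just outside it Trim13 (−0.80), Rab39 (−0.78) and Capsl (−0.77). Of the other eligible units 16 passed the threshold at 0.5 hpd only and 91 that at 1 hpd only.

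The comparison of 6 hpd with 2 hpd asked whether transcription of these genes went on dropping or came back after the early fall. It called 2 members higher and 0 lower, where 0.498% and 0.885% of eligible units were called higher and lower. Lama1 was higher at 6 than at 2 hpd by 0.56 ± 0.11 (SE, adjusted p = 0.023) and Ak3 by 0.88 ± 0.17 (0.026), and in both genes the libraries of 6 hpd lay above those of 2 hpd. Neither call held without 6 hpd replicate 1, 6 hpd replicate 2 or 2 hpd replicate 2, with adjusted p between 0.0986 and 0.147 for Lama1 and between 0.117 and 0.163 for Ak3, and the Ak3 call was also lost without 2 hpd replicate 1 (0.0745) and in a fit of these libraries alone (0.0574). At an unadjusted p below 0.05 the fit held 13 members higher and 6 lower, beside 6.65% and 5.16% of the 9833 eligible units. DESeq2 called 2 higher and 1 lower, the latter Jam2 (adjusted p = 0.0081), beside 0.651% and 1.22% of eligible units.

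The members with the next smallest p-values did not pass in this fit. Enpp3 differed by 0.84 (adjusted p = 0.11), Ism2 by 0.59 (0.11) and Plekhh1 by 0.46 (0.079), and in the other direction Mroh4 by −0.60 (0.16), Jam2 by −0.55 (0.059), Spp1 by −0.41 (0.11), Mapk13 by −0.36 (0.24) and Fzd5 by −0.31 (0.32). The median over the members was 0.07, beside −0.02 over all units tested and 0.0039 over the eligible units, with 49 members above 0 and 33 below. Both libraries of 6 hpd lay above both of 2 hpd in 23 members and below them in 9, that is 28% and 11%, beside 24.7% and 12.9% of eligible units, so these shares were near the background. By role, 9 of 11 surface and matrix genes were below 0, with a median of −0.20, and 9 of 12 signalling and GTPase genes above it, with a median of 0.22, counts that carry no test.

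**Figure D3:**
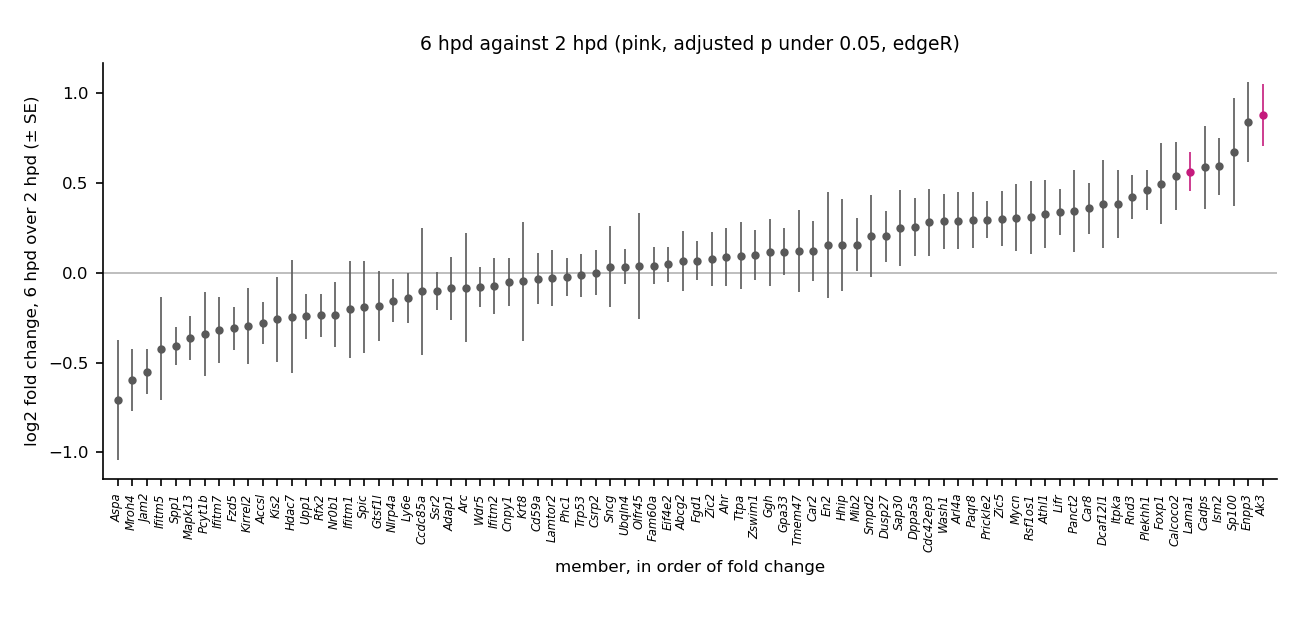
Log2 fold change of 6 hpd over 2 hpd with its standard error for 80 of the 82 members in order of size, from −0.71 (Aspa) to 0.88 (Ak3), with the members past an adjusted p of 0.05 (edgeR) in pink. Lama1 and Ak3 are the coloured points, and of all 82 members 49 were above 0 and 33 below.

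In all, 9 members stand in the gene lists of pathways. Of 42 tested genes of a pluripotency network list, whose members here include Dppa5a, Nr0b1, Mycn and Jam2, 16 were called lower and 0 higher at 1 hpd, and 26 lower and 2 higher at 6 hpd, beside 3.61% lower and 2.15% higher, and 9.2% lower and 6.61% higher, of all units tested. Of the eligible genes alone, 3.34% were lower and 4.61% higher at 1 hpd, and 7.12% lower and 12.7% higher at 6 hpd. Its median log2 fold change was −0.33 at 1 hpd and −0.63 at 6 hpd, against −0.04 over all tested units at each time. Of 19 genes of the LIF-STAT3 list with Lifr, 9 were lower and 2 higher at 6 hpd (median −0.39). Of 28 Wnt-TCF genes with Fzd5, 6 were lower and 10 higher (0.23), of 39 adhesion and guidance genes with Jam2 and Lama1, 9 and 5 (0.12), and of 43 chromatin regulators with Phc1, 5 and 4 (0.08). The FGF-ERK list (28 tested, 4 lower and 6 higher, median 0.19), the Nodal-BMP list (28 tested, 5 and 5, 0.11) and the immediate early list (9 tested, 2 and 2, 0.49) held no member. The rule barred Fgf4 and Spry4 of the FGF-ERK list and Lefty1 and Lefty2 of the Nodal-BMP list by name.

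The members were not scattered evenly over the genome. Another member lay within 50 kb of 17 members (20.7%), and a member lay within 50 kb of 99 of the other eligible units (1.02%). They formed 7 clusters, namely Dusp27 with Gpa33 (chr1:166093912-166168800), Zic5 with Zic2 (chr14:122454127-122487748), Mroh4 with Arc (chr15:74617540-74673005), Lamtor2 with Ubqln4 and Ssr2 (chr3:88538764-88627476), Ttpa with Ggh (chr4:20007331-20072801), En2 with Cnpy1 (chr5:28165373-28210202) and Ifitm5 with Athl1, Ifitm2 and Ifitm1 (chr7:140930692-140981284). Members of one cluster are not independent of each other. On the X chromosome lie 7 members (8.54%), beside 3.31% of eligible units.

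A unit is the stretch over which the authors' model found transcription, and it can run far past the annotated gene. The units of the members were 6.08 to 248 kb long, with a median of 28.3 kb against 35.1 kb for eligible units, and their median NT level per length was 1.15 CPM per kb against 1.21. The annotated transcript filled under 50% of the unit in 38 members (46.3%, against 31.8% of eligible units). It filled 4.24% in Olfr45, 6.22% in Dppa5a, 6.54% in Ifitm5 and 7.16% in Lamtor2, so most of the length counted under these names lies outside the annotated transcript. The 5′ end of the unit lay within 1 kb of the annotated start in 46 members and more than 5 kb upstream in 19, reaching 61605 bp in Accsl and 53438 bp in Prickle2. Short units had completed more of the first-hour change at 0.5 hpd, at a median of 77.2% for the 23 units under 20 kb, 73.9% for 39 units of 20 to 50 kb and 69.7% for 20 units above 50 kb, a description over values that the rule used.

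The promoter sequences of 61 members could be matched by symbol in RefSeq's table (GRCm38.p6, from 250 bases before to 50 after the annotated start), 44 of them starting within 50 bp of the annotated start of the unit's transcript. For SOX sites the core CATTGTT was searched on both strands, and with it the shorter CATTGT, which every match of the longer one contains. Other forms of the SOX site were not searched, so 0 matches do not show that a promoter lacks one. For the octamer bound by OCT4 the search used TGCAAAT, for the GC box it used GGGCGGG, and for the TATA box TATAAA, also on both strands. The longer SOX core occurred in 0 of the 61 promoters, against 3.78% of all promoters in the table and 1.80% of those of eligible genes, and the shorter one in 6 (9.84% against 12.6% and 6.85%), those of Lifr, Gpa33, Enpp3, Cd59a, Eif4e2 and Foxp1. The octamer letters occurred in 3 (4.92% against 4.02% and 2.72%), those of Pcyt1b, Spp1 and Rnd3, the GC box in 29 (47.5% against 25.6% and 50.5%) and the TATA box in 8 (13.1% against 13.6% and 6.41%). The matched promoter of Pcyt1b lay 25953 bp from the annotated start of its unit's transcript. For the shorter SOX core the members thus lay below the share of all promoters and above that of the eligible genes. In 0 of the 61 did the shorter SOX core and the octamer letters occur together. The 250 bases upstream of the start are printed for 5 genes whose course is described above and which hold one of the SOX or octamer letter strings, in the direction of the gene, with that match in capitals. A match is a description of the letters and not a bound site.
Lifr, chr15:7140292-7140541, plus strand, CATTGT 210 to 215 bases upstream: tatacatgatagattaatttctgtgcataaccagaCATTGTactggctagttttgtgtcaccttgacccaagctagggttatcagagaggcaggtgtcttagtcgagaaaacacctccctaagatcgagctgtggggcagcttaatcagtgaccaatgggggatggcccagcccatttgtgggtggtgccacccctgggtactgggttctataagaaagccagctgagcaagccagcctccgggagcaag
Enpp3, chr10:24836196-24836445, minus strand, CATTGT read as its reverse complement 113 to 118 bases upstream: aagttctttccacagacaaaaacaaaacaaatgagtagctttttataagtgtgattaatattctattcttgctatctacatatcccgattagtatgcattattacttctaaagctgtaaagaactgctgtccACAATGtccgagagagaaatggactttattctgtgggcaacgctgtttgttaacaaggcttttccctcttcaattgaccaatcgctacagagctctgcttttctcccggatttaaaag
Eif4e2, chr1:87213689-87213938, plus strand, CATTGT read as its reverse complement 154 to 159 bases upstream: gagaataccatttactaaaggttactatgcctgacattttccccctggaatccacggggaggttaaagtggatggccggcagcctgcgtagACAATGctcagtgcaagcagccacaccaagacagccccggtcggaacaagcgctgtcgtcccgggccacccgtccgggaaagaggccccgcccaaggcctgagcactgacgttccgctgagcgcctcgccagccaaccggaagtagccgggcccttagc
Spp1, chr5:104435942-104436191, plus strand, TGCAAAT 203 to 209 bases upstream: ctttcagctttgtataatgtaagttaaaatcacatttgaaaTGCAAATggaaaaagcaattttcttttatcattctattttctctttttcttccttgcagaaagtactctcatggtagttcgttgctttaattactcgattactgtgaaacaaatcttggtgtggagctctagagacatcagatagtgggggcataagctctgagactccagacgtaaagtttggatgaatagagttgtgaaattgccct
Rnd3, chr2:51149112-51149361, minus strand, TGCAAAT 221 to 227 bases upstream: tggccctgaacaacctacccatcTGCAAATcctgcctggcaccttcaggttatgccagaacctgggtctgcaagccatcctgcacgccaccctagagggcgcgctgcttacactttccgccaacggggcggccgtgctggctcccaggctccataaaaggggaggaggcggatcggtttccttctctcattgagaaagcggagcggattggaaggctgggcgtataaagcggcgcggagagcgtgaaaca
The units of Eif4e2 and Rnd3 begin beside these starts, whereas the units of Lifr and Spp1 begin upstream of the printed bases and that of Enpp3 begins inside the gene. The 5 genes did not share a course, since Enpp3 and Rnd3 stood at 79.0% and 75.1% of NT at 6 hpd and Lifr and Spp1 at 35.2% and 28.2%.

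The rule chose genes only, so no unit on the antisense strand or in intergenic DNA near them was picked by its own values. The counts at 0.5 and 1 hpd still use the libraries that chose the genes beside these units, and are a description. Within 50 kb of the 5′ ends of 42 members lay 91 tested non-genic units. Of these, 9, 25, 26 and 34 were lower than NT at 0.5, 1, 2 and 6 hpd, that is 9.89%, 27.5%, 28.6% and 37.4%, beside 0.758%, 3.65%, 5.82% and 10.8% of all non-genic units. These counts depended on single libraries. Without NT replicate 2 they were 1, 10, 12 and 14 (1.16%, 11.6%, 14% and 16.3% of the units then tested), beside 0.13%, 1.33%, 2.27% and 4% of all non-genic units. The count at 0.5 hpd was 4 without NT replicate 1, and 3 and 2 without 0.5 hpd replicate 1 and 2. Without replicate 1 or 2 of the depleted group itself, the count was 13 or 14 at 1 hpd and 19 either way at 6 hpd, and at 2 hpd it was 15 without replicate 1. With all libraries 0 of the 91 were higher at every time, beside 0.186%, 0.587%, 1.34% and 2.41%. A thin unit could pass the filter through its NT libraries alone, which keeps units that were high in NT, and 72 of the 91 had a mean under 50 fragments. Among the 19 with at least 50, 3, 7, 9 and 11 were called lower (15.8%, 36.8%, 47.4% and 57.9%), beside 1.69%, 6.45%, 9.8% and 16.8% of the 3021 such units in all. The NT, 0.5 hpd and 1 hpd libraries are the same as those of the rule, and overlapping or adjoining units are not independent of the gene beside them. Leaving out 1 library gave 1 to 3, 3 to 7, 4 to 9 and 5 to 11 of the 19 called lower. DESeq2, which gave an adjusted p for 53, 53, 67 and 91 of the 91 units, called 3, 11, 16 and 21 lower (5.66%, 20.8%, 23.9% and 23.1%), beside 0.884%, 3.67%, 4.86% and 6.38% of all non-genic units that it tested. Between 2 and 6 hpd 0 of the 91 were called in either direction by edgeR, beside 0.267% lower and 0.0817% higher of all non-genic units.

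**Figure D4:**
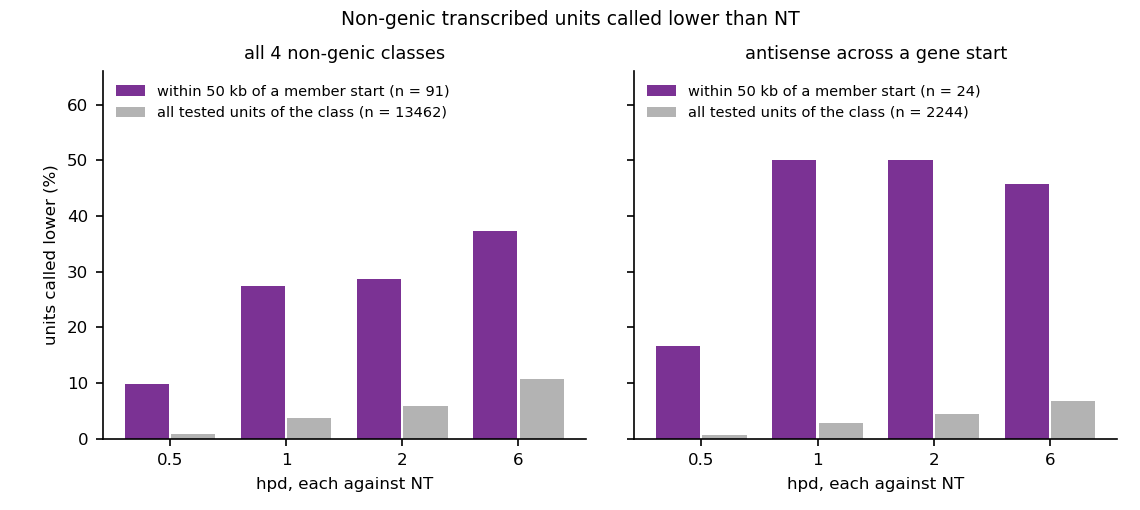
Share of non-genic units called lower than NT (per cent, edgeR, adjusted p below 0.05) at 0.5, 1, 2 and 6 hpd, for units within 50 kb of a member's 5′ end (purple) and for all tested units of the class (grey). On the left, all non-genic classes give 9.89% to 37.4% near members and 0.758% to 10.8% in all, and on the right the antisense units across a gene start reach 50% of 24 at 1 and 2 hpd.

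Antisense units that cross a gene start, the usual product of divergent transcription from a promoter, made up 24 of the 91. Of them 4, 12, 12 and 11 were called lower at 0.5, 1, 2 and 6 hpd, against 0.668%, 2.85%, 4.41% and 6.77% of all 2244 such units. The counts were 0, 4, 6 and 8 without NT replicate 2, 0 at 0.5 hpd without either replicate of that time and 1 without NT replicate 1, 6 and 7 at 1 hpd without its replicate 1 and 2, and 8 at 2 hpd without its replicate 1. The antisense unit of Jam2 (chr16:84767223-84779795) read 3.95 and 5.75 CPM in NT, 1.59 and 2.70 (0.5 hpd), 1.1 and 0.791 (1 hpd), 0.875 and 0.833 (2 hpd) and 0.420 and 0.505 (6 hpd), with no overlap between NT and any later group (−2.27 ± 0.33 at 1 hpd, adjusted p = 0.00054). That of Phc1 (chr6:122339026-122368434) read 13.3 and 15.1 CPM in NT, 9.21 and 8.0 (0.5 hpd), 7.85 and 6.72 (1 hpd), 5.62 and 6.96 (2 hpd) and 6.23 and 5.89 at 6 hpd (−0.87 ± 0.17 at 1 hpd, 0.0045). Outside this class, a unit listed as antisense to a gene body (chr12:87299867-87320400, plus strand) lay 143 bp from the 5′ end of Ism2, on the other strand and without overlap. It read 19.7 and 19.0 CPM in NT, 9.44 and 9.16 (0.5 hpd), 7.48 and 8.19 (1 hpd), 7.18 and 7.91 (2 hpd) and 10.6 and 11.3 (6 hpd), and here the level of 6 hpd lay above that of 1 and 2 hpd, as the level of Ism2 itself did.

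For 13 members the antisense unit ran across the 5′ end of the member's own unit. Of these, 3, 10, 9 and 8 were called lower at 0.5, 1, 2 and 6 hpd. Of all 2244 antisense units across a gene start, 0.668%, 2.85%, 4.41% and 6.77% were lower. Those lower at 1 hpd were the units of Calcoco2, Cnpy1, Fzd5, Jam2, Ly6e, Mib2, Mycn, Phc1, Upp1 and Wdr5. Of the 24 units of this class near members, as few as 4 were called lower at 1 hpd when a library was left out. Only 2 of the 13 had a mean of at least 50 fragments. In NT the antisense level per kb was between 1.56% (Wdr5) and 75.8% (Mib2) of the sense level per kb. Whether fragments assigned to the wrong strand add to the antisense values was not tested.

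**Figure D5:**
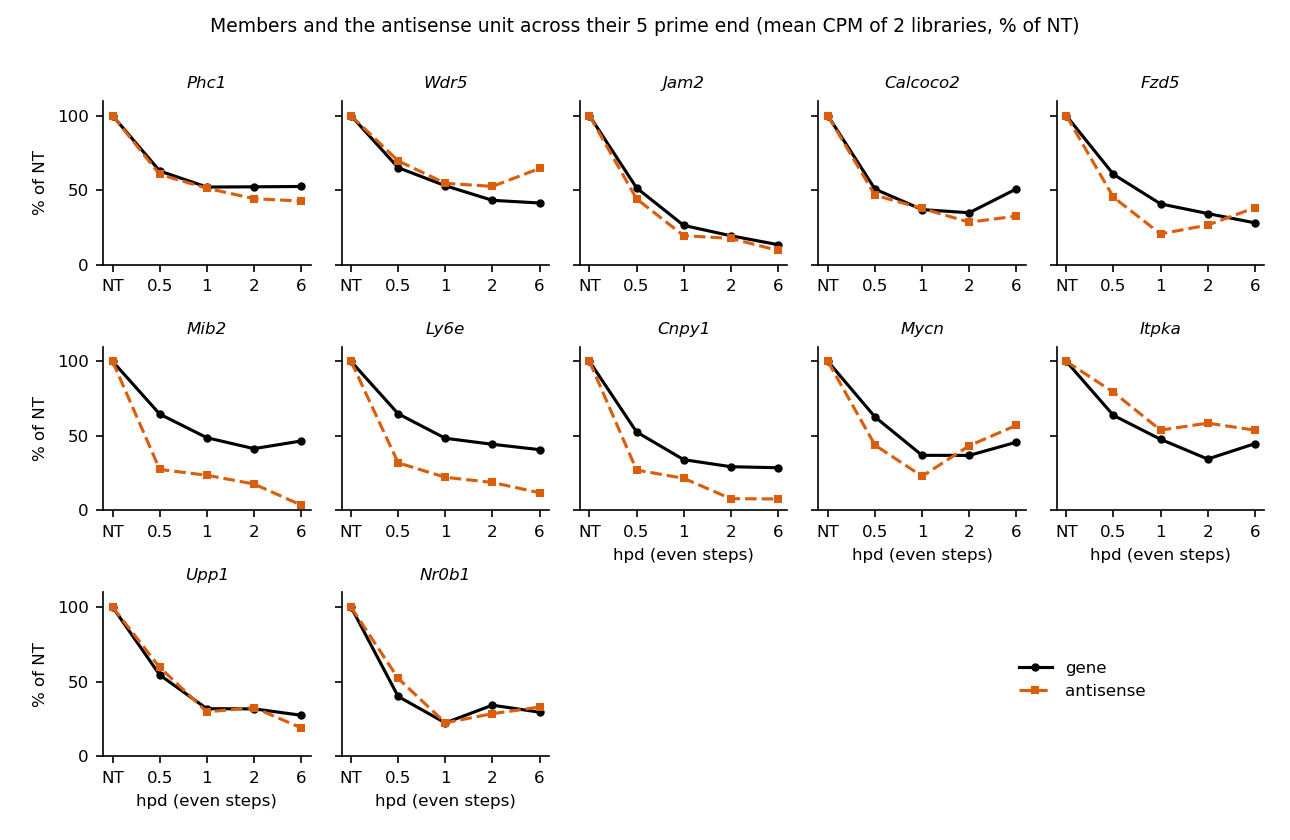
Mean CPM of the 2 libraries per group as a percentage of NT for 12 of the members (black, solid) and for the antisense unit across their 5′ end (orange, dashed), at 0.5, 1, 2 and 6 hpd. The antisense unit of Jam2 follows the gene closely, while that of Itpka, which was not called, stays above the gene at every time.

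Units inside a gene or between genes were called lower less often than those across a gene start. At 1 hpd, 5 of 21 antisense units of gene bodies (23.8%) and 5 of 40 intergenic units (12.5%) near members were lower. Of all such units, 3.32% and 3.91% were. The units below are examples chosen after their values were seen. Opposite the body of Spp1, a unit (chr5:104428017-104467409) read 49.5 and 65.9 CPM in NT, 39.8 and 43.5 (0.5 hpd), 31.6 and 32.9 (1 hpd), 31.3 and 34.8 (2 hpd) and 26.8 and 26.7 at 6 hpd (−0.75 ± 0.12 at 1 hpd, adjusted p = 0.0014). An intergenic unit 47657 bp from the 5′ end of Lifr (chr15:7055343-7081944, minus strand) read 9.64 and 17.7 CPM in NT, 5.30 and 6.74 (0.5 hpd), 2.07 and 2.09 (1 hpd), 1.47 and 1.55 (2 hpd) and 1.68 and 1.12 at 6 hpd (−2.62 ± 0.28 at 1 hpd, 4.5e-05). The NT libraries of the unit near Lifr differed from each other more than those of Lifr did, and both still lay above all 8 depleted libraries.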

How the data were processed

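Nascent RNA was measured by TT_chem-seq in 10 libraries. The authors aligned reads with BWA 0.7.17-r1188 to mm10, removed low-quality and duplicate reads with SAMtools 1.10 and Picard 2.12.0, split alignments by strand, defined transcribed units with a 2-state hidden Markov model on pooled data and deposited raw fragment counts per unit, with no normalization. A unit that overlaps several genes was not eligible, and counting by strand limits, but does not exclude, reads shared with an opposite gene.

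From these deposited counts, CPM were computed by library total. Units were kept where 2 or more libraries held more than 10 fragments (28459 of 40779, all 82 members among them) and fitted in edgeR 4.0.16 (R 4.3.3, limma 3.58.1) with TMM factors (0.913 to 1.06), 1 coefficient per group and a shared spread. Quasi-likelihood tests were adjusted over all tested units by Benjamini-Hochberg at 0.05, and SE are of the log2 fold change. The common biological coefficient of variation was 10.0%. Members had a mean of 51.7 to 3791 fragments per library (median 265.9). DESeq2 1.42.0 was an alternative, and the edgeR script was tested on simulated data. Tables and figures were made with Python 3.11.15, pandas 2.3.3 and matplotlib 3.10.9.

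Members and gene lists were chosen with earlier results of these data known, and role groups after the members' names were known. Named genes were the 12 members highest in NT, the 12 lowest at 1 hpd, the 5 with the smallest p in each direction between 6 and 2 hpd, members in a list, and the 3 on either side of each threshold. Other genes are named as examples of role groups, families or neighbouring units, chosen after their values were seen. The lists are those of the pluripotency network, FGF-ERK, LIF-STAT3, Nodal-BMP, Wnt-TCF, adhesion and guidance, chromatin regulators and immediate early genes. The labels do not say that replicates came from separate cultures, so p-values measure only the spread between these libraries. Alternatives were other normalizations, filters, fits and rules, and leaving out each library. Some members are not reported by name here. Promoters not matched by symbol include those of Mroh4, Rsf1os1, Jam2, Arc, Zic2, Athl1, Calcoco2, Ttpa, Ahr, Ggh, Lama1, Dppa5a, Zswim1, Car8, Csrp2, Ly6e, Car2, En2 and Ssr2.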

Additional observations from a re-analysis of the deposited data

Results flagged for a closer look

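Between 2 and 6 hpd, 2 members differed past the threshold in the test of that difference itself. Lama1 was higher at 6 than at 2 hpd by 0.56 on the log2 scale, with 30.6 and 30.3 CPM at 2 hpd and 45.6 and 46.3 CPM at 6 hpd. Ak3 was higher by 0.88, with 4.28 and 4.22 CPM at 2 hpd and 7.92 and 8.07 CPM at 6 hpd. Both had close replicates in both groups, and both calls were lost without either library of 6 hpd or without 2 hpd replicate 2.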

How the results depend on the processing

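DESeq2 called 53, 79, 80 and 72 members lower at 0.5, 1, 2 and 6 hpd. Leaving out each library gave 24 to 59 members called lower at 0.5 hpd, 65 to 82 at 1 hpd, 72 to 82 at 2 hpd and 66 to 76 at 6 hpd, and 76 to 102 members under the rule itself. The rule on TMM-scaled CPM gave 63 members, with 1 CPM added 68, and with a mean of at least 100 fragments 67. Total-count scaling moved the median of all units by −0.12 at 2 hpd.

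Between 6 and 2 hpd, 1 member was lower (Jam2) under DESeq2, total counts or a mean of at least 50 fragments, and 0 to 1 when a library was left out. The number higher was 1 with only the libraries compared and 0 to 2 when a library was left out, and the median log2 fold change of members was then 0.05 to 0.12. The following values, none of them called, changed sign. When a library was left out, Wdr5 ranged from −0.21 to 0.052, Fgd1 from −0.069 to 0.21, Phc1 from −0.072 to 0.066, Ssr2 from −0.18 to 0.011, Spic from −0.56 to 0.31, Hdac7 from −0.71 to 0.15, Olfr45 from −0.39 to 0.48 and Dppa5a from −0.023 to 0.51. With total counts Phc1 was at 0.0057. The cause of these changes was not tested.

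Non-genic units near members called lower at 0.5, 1, 2 and 6 hpd numbered 3, 11, 16 and 21 under DESeq2, 2, 7, 10 and 11 with a mean of at least 50 fragments, and 1 to 9, 10 to 26, 12 to 26 and 14 to 35 when a library was left out. Member promoters with the SOX letters numbered 6 for CATTGT and 0 for CATTGTT.

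Replicate numbers were shared by the groups, but the differences between replicates 1 and 2 correlated across units only by 0.0742 to 0.291 between groups, so the libraries were not treated as pairs. With the replicate number as a block, 4 members (Jam2, Spp1, Mroh4 and Aspa) were lower and 7 (Lama1, Ak3, Enpp3, Rnd3, Calcoco2, Plekhh1 and Ism2) higher at 6 than at 2 hpd (4.88% and 8.54%), beside 2.54% and 2.59% of eligible units, and 18 non-genic units near members were lower at 0.5 hpd (19.8%), beside 2.01% of all non-genic units. With 2 libraries a group, members near the count minimum have wide errors, and a difference that was not called is not shown to be absent.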
